A study of Homo sapiens with 18 samples.

Results

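Neuronal cytoskeleton genes were followed in the RNA-seq data of human PSCs lacking PCGF6. The set held 10 genes of the 57133 in the count table, taken by their symbols: the 4 neurofilament subunits NEFL, NEFM, NEFH and INA, the microtubule regulators STMN2, MAP2, MAPT and DCX, the growth cone protein GAP43 and the neuronal tubulin TUBB3. The cells were PGP1, an established human induced PSC line, grown without differentiation in mTeSR1 medium on Matrigel. There were 2 libraries of unedited wild-type (WT) cells, 2 of PCGF6-KO clone 1 (KO1) and 2 of PCGF6-KO clone 2 (KO2). Each clone grew from a single edited cell of PGP1 after transfection with Cas9, paired guide RNAs against the first exon of PCGF6 and selection with puromycin. The WT group was the unedited parent line, so the genotype and what is particular to each clone cannot be told apart beyond the comparison of the 2 clones. Separate cultures are not stated for the libraries of a group, so the p-values measure only the spread between these libraries.

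A neuron keeps its long processes with neurofilaments, which are bundles of the light, medium and heavy subunits together with alpha-internexin, and with microtubules built from tubulin. Microtubule-associated proteins such as MAP2 in dendrites and tau in axons stabilise these microtubules, stathmins take tubulin dimers away from them, and doublecortin bundles them in migrating young neurons. GAP43 lies under the membrane of the growing axon tip. In pluripotent cells these genes are generally low and are raised when the cells become neurons, which is why TUBB3, MAP2 and DCX are used as neuronal stains. PCGF6 is the subunit that defines the noncanonical Polycomb repressive complex PRC1.6, which silences genes of the germ line and of differentiated cells.

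The libraries held between 15877396 and 18918609 counts, and the 10 most abundant genes took between 4.57 and 4.95% of each. Levels are given as CPM, the count scaled by the TMM library size. PCGF6 itself had 16.5 and 18.0 CPM in WT, 5.18 and 5.67 CPM in KO1 and 10.3 and 9.91 CPM in KO2. It was lower in all 4 PCGF6-KO libraries, by 1.15 ± 0.27 (SE) on the log2 scale (adjusted p = 0.00914 from the quasi-likelihood test of edgeR, adjusted after Benjamini and Hochberg), and the residual level was higher in KO2. In a fit with WT, KO1 and KO2 as separate groups, the difference from WT was -1.67 ± 0.14 (SE) in KO1 and -0.77 ± 0.13 in KO2. Both passed the test (adjusted p = 1.03e-10 and 1.21e-05 by edgeR). Over both clones the call was lost without either WT library, where the difference was -1.22 or -1.09. Since the counts cover the whole gene, a deletion within the first exon need not lower them.

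All 10 genes had enough counts to be tested. A gene was called when its adjusted p was under 0.05 and its absolute log2 fold change over 0.6. In the 4 PCGF6-KO libraries against the 2 WT libraries, NEFH, NEFL, NEFM, GAP43, STMN2 and INA rose, DCX fell, and MAP2, MAPT and TUBB3 were not called. Thus 6 of 10 were called higher, where 14.9% of the 17672 genes tested were, and 1 of 10 lower, where 8.70% of all genes were. The median log2 fold change of the 10 genes was 1.15, against 0.00 over all genes tested. Their summed level was 184 to 187 CPM in WT, 533 to 542 CPM in KO1 and 477 to 492 CPM in KO2. These are bulk libraries, so that more cells with a transcript and more of it per cell cannot be told apart.

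**Figure D1:**
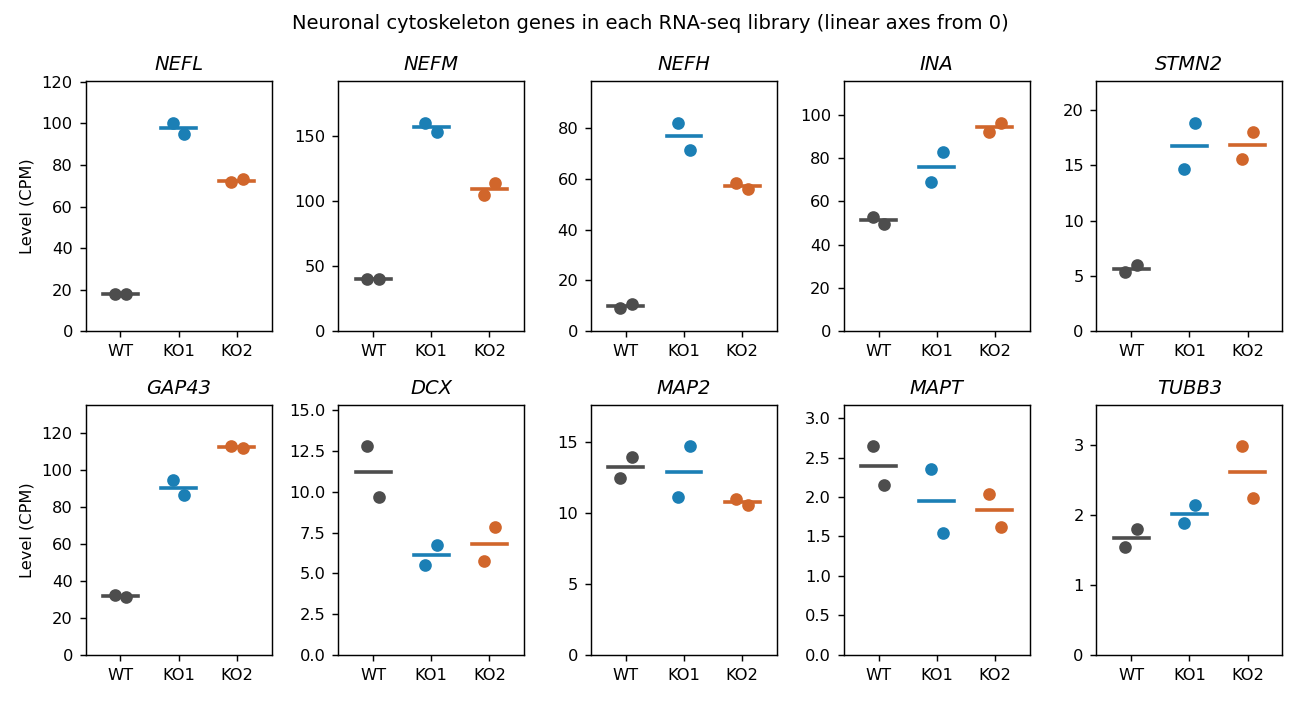
Level of each of the 10 genes, in CPM on linear axes that start at 0, with a point for each library and a line at the mean of the 2 libraries of a group (WT, KO1, KO2). For the 6 genes that rose, every PCGF6-KO point lay above both WT points, as for NEFL at 17.9 CPM in WT and 72.0 to 100.4 CPM in the clones, while for MAP2 and MAPT the points of the groups overlapped.

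NEFL, NEFM and NEFH encode the light, medium and heavy subunits. NEFL is a gene of 4 exons on chromosome 8, at 24950955 to 24956721 of GRCh38 on the minus strand. NEFM lies beside it from 24913758 to 24919098 on the plus strand, with 31856 bases and no annotated gene between their 3′ ends. NEFH, on chromosome 22 from 29480218 to 29491390, has no neurofilament gene beside it.

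NEFL stood at 17.9 CPM in both WT libraries, at 100.4 and 94.9 CPM in KO1 and at 72.0 and 73.1 CPM in KO2. The WT libraries agreed within 0.1 CPM and every PCGF6-KO library was far above them. The rise was 2.25 ± 0.16 (SE) on the log2 scale, or 4.76-fold (adjusted p = 1.14e-05 by edgeR). NEFM had 40.1 and 40.2 CPM in WT, 160.4 and 153 CPM in KO1 and 105 and 114 CPM in KO2. It thus started from the higher level of the pair and rose 3.32-fold, by 1.73 ± 0.18 (SE) on the log2 scale (adjusted p = 1.08e-04 by edgeR). NEFH had 9.15 and 10.8 CPM in WT, 82.1 and 71.5 CPM in KO1 and 58.2 and 56.0 CPM in KO2. The heavy subunit, which carries the long phosphorylated tail of the mature filament, was the lowest of the 4 subunits in WT and had the largest change of the 10 genes, at 2.74 ± 0.19 (SE) on the log2 scale or 6.69-fold (adjusted p = 7.73e-06 by edgeR). For these 3 subunits KO1 was above KO2 in every library.

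INA, which encodes alpha-internexin, the subunit that young neurons make before the others, changed less. It had 52.9 and 49.5 CPM in WT, 69.1 and 82.6 CPM in KO1 and 92.0 and 96.4 CPM in KO2. No PCGF6-KO library overlapped WT, but here KO2 was above KO1. Over the 4 PCGF6-KO libraries INA rose by 0.73 ± 0.13 (SE) on the log2 scale, or 1.66-fold (adjusted p = 0.00213 by edgeR).

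Per length, the make-up of the neurofilament transcripts also differed. CPM per kilobase of exon (RPKM), using the exon lengths deposited beside the counts, allow levels to be set side by side between genes only roughly. Which transcripts of a gene were made is not known, and RPKM is too low where the deposited length is longer than they are. The 4 subunits summed to 32.1 and 31.5 RPKM in WT, 103 and 101 RPKM in KO1 and 84.4 and 87.6 RPKM in KO2. INA supplied 51.1 and 48.6% of the sum in WT, 20.8 and 25.2% in KO1, and 33.7 and 34.0% in KO2. NEFH went the other way, with 7.54 and 9.10% in WT, 21.1 and 18.6% in KO1 and 18.2 and 16.9% in KO2. NEFL took 12.9 and 13.1% in WT and 19.3 to 22.5% in the clones, whereas NEFM kept to 28.3 to 35.6% over all 6 libraries. The shares of INA, NEFH and NEFL did not overlap between the genotypes. They are given without a test, since an exact permutation test of 2 against 4 libraries cannot give a p under 0.0667.

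**Figure D2:**
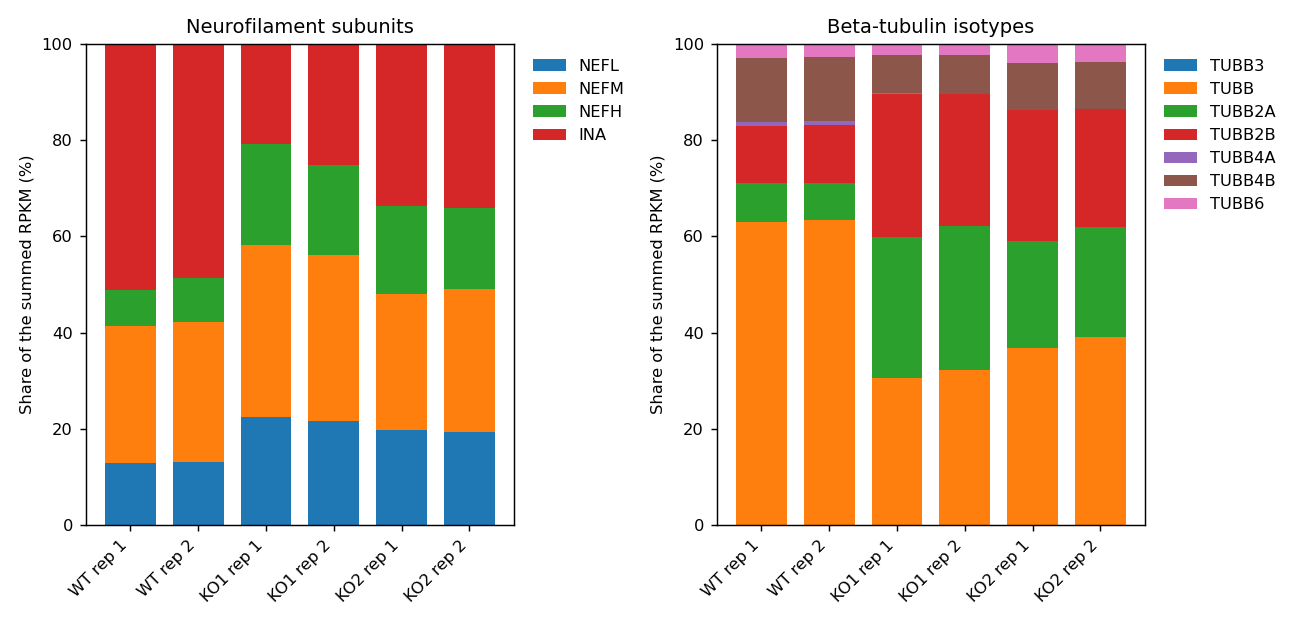
Share of each gene in the summed RPKM of its family, in percent, for the neurofilament subunits (left) and the beta-tubulin isotypes (right), with a stacked bar for each library. INA made up 51.1 and 48.6% of the neurofilament sum in WT and between 20.8 and 34.0% in the PCGF6-KO libraries. TUBB made up 63.0 and 63.3% of the beta-tubulin sum in WT and between 30.5 and 39.0% in the PCGF6-KO libraries. TUBB3 is too small a share to be seen, and reads it shares with a readthrough gene may be missing from it.

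INA is a neighbour of the edited gene. It lies on chromosome 10 from 103277138 to 103290346 on the plus strand, and PCGF6 from 103302796 to 103351144 on the minus strand, so that their 3′ ends face each other over 12449 bases with no annotated gene between. INA also shares 452 of its 3251 annotated exon bases (13.9%) with NT5C2, a nucleotidase gene of the opposite strand. The strand setting of the counting is not given in the sources used here, so reads from the shared stretch cannot be assigned to one of them. NT5C2 had 47.5 and 43.6 CPM in WT and 62.4 to 66.8 CPM in the PCGF6-KO libraries, a difference of 0.51 ± 0.07 (SE) on the log2 scale that passed the test (adjusted p = 6.05e-04 by edgeR) but was under the fold threshold. Its part in the value of INA was not tested.

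Of the genes that rose, INA and GAP43 have a promoter in the RefSeq table for GRCh38.p14, and their windows are shown because both genes rose from promoters of very different composition. Each is the 250 bases that end just before the transcription start site, on the strand of the gene, which is the plus strand for both. Capitals mark matches to the CCAAT box (CCAAT) or to the GC box (GGGCGG) on either strand, so that a match on the minus strand reads ATTGG or CCGCCC.
INA, chr10:103276888-103277137: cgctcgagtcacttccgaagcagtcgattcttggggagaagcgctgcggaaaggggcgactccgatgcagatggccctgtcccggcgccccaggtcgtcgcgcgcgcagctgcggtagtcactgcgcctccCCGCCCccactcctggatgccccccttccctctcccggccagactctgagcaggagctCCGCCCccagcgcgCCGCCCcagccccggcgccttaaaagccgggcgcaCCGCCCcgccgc
GAP43, chr3:115623260-115623509: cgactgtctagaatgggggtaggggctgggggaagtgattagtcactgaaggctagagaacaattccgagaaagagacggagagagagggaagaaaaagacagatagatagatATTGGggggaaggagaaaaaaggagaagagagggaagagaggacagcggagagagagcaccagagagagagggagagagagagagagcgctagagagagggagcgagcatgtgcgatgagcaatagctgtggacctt
The INA window is 72.8% GC with 30 CG dinucleotides and holds 4 GC boxes, all on the minus strand, of which 3 lie 61, 47 and 12 bases before the start site. The GAP43 window is 51.6% GC with 7 CG dinucleotides and holds 1 CCAAT box on the minus strand, 137 bases before the start site. The median of all 34943 RefSeq windows of the same length was 58.0% GC and 11 CG dinucleotides, 42.5% of them held a GC box and 32.0% a CCAAT box. The E-box CACGTG (in 6.32% of all windows) and the E2F6 site GCGGGAA (in 5.51%), searched on both strands because MAX and E2F6 belong to PRC1.6, were in neither window.

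GAP43, the growth cone protein, lies on chromosome 3 from 115623510 to 115721490. Its level was 32.2 and 31.6 CPM in WT, 94.4 and 86.6 CPM in KO1 and 113 and 112 CPM in KO2. All PCGF6-KO libraries were well above WT, and KO2 above KO1. The rise was 1.67 ± 0.12 (SE) on the log2 scale, or 3.17-fold (adjusted p = 1.26e-05 by edgeR).

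STMN2, a stathmin made in growing neurons, lies on chromosome 8 from 79611117 to 79666158. It had 5.34 and 5.99 CPM in WT, 14.7 and 18.9 CPM in KO1 and 15.6 and 18.0 CPM in KO2. The clones overlapped each other and neither reached down to WT. STMN2 rose 2.96-fold, by 1.56 ± 0.15 (SE) on the log2 scale (adjusted p = 7.09e-05 by edgeR).

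DCX, which encodes doublecortin, was the only one of the 10 genes to fall. It lies on chromosome X from 111293779 to 111412429. Its level was 12.8 and 9.65 CPM in WT, 5.49 and 6.71 CPM in KO1 and 5.74 and 7.85 CPM in KO2. The groups did not overlap, but the 2 WT libraries lay further apart than the 2 libraries of either clone. DCX fell by 0.80 ± 0.19 (SE) on the log2 scale, or 1.74-fold (adjusted p = 0.00959 by edgeR). The call rested on WT replicate 1, the higher one: without it the difference was -0.59 on the log2 scale and was not called (adjusted p = 0.138 by edgeR).

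MAP2, MAPT and TUBB3 did not pass the test. MAP2, on chromosome 2 from 209424047 to 209734147, had 12.5 and 14.0 CPM in WT, 11.1 and 14.7 CPM in KO1 and 11.0 and 10.5 CPM in KO2. One KO1 library was above WT and one below, and the difference over all PCGF6-KO libraries was -0.16 on the log2 scale with a 95% interval of -0.52 to 0.20 (adjusted p = 0.468 by edgeR). That interval holds no rise past the threshold of 0.6. MAPT, the tau gene on chromosome 17 from 45894527 to 46028334, had 2.64 and 2.16 CPM in WT, 2.35 and 1.54 CPM in KO1 and 2.04 and 1.62 CPM in KO2. These values rest on 26 to 45 counts in each library and overlap, and the difference was -0.34 on the log2 scale with a 95% interval of -0.93 to 0.25 (adjusted p = 0.344 by edgeR).

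TUBB3, the beta-tubulin isotype used as a stain for neurons, lies on chromosome 16 from 89921392 to 89938761. It had 1.54 and 1.80 CPM in WT, 1.88 and 2.15 CPM in KO1 and 2.98 and 2.24 CPM in KO2. Every PCGF6-KO value was above WT, on 25 to 54 counts in each library. The difference of 0.47 on the log2 scale had a 95% interval of -0.15 to 1.09 and was not called (adjusted p = 0.208 by edgeR). TUBB3 shares exon bases with an annotated readthrough gene of its own strand, and how reads that fit several genes were counted is not given in the sources used here, so reads it shares with that gene may be missing from its count.

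The other members differed in what they share. STMN2, MAP2, DCX and GAP43 share no exon bases with another annotated gene, and NEFL, NEFM and NEFH each share some with an unnamed gene of the opposite strand. MAPT shares 75 exon bases with MAPT-AS1, which had 0 counts in all 6 libraries. The pseudogenes NEFLP1, NEFMP1, NEFHP1 and TUBB3P2 had 0 counts in all libraries, and TUBB3P1 had at most 2.

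In WT cells the genes ran from INA to MAPT by level per length. This order depends on the deposited lengths, which were 14920 bases for MAPT, 11559 for MAP2 and 10203 for DCX, against 3783 for NEFH. By CPM the WT means of MAP2 (13.2) and DCX (11.2) were above that of NEFH (10.0). INA (15.9 RPKM) and GAP43 (15.3 RPKM) had overlapping WT values at the top. NEFM (9.17 RPKM) and NEFL (4.13 RPKM) followed, each separate from its neighbours. NEFH (2.64 RPKM) and STMN2 (2.40 RPKM) overlapped, as did MAP2 (1.14 RPKM) and DCX (1.10 RPKM). TUBB3 (0.376 RPKM) and MAPT (0.161 RPKM) closed the order, and had the lowest means in each of the clones too, although TUBB3 and DCX overlapped in KO2. In KO1 the order at the top was GAP43 (43.4 RPKM), NEFM (35.8 RPKM) and INA (23.5 RPKM), of which INA overlapped NEFL (22.6 RPKM). In KO2 it was GAP43 (53.8 RPKM), INA (29.1 RPKM) and NEFM (25.0 RPKM), with no overlap between them. TUBB3, MAP2 and DCX, the genes used as neuronal stains, reached at most 1.27 RPKM in any library. Each of the 4 neurofilament subunits had 14.8 RPKM or more in every PCGF6-KO library. The level and place of TUBB3 are uncertain, since reads it shares with its readthrough gene may be missing from its count.

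**Figure D3:**
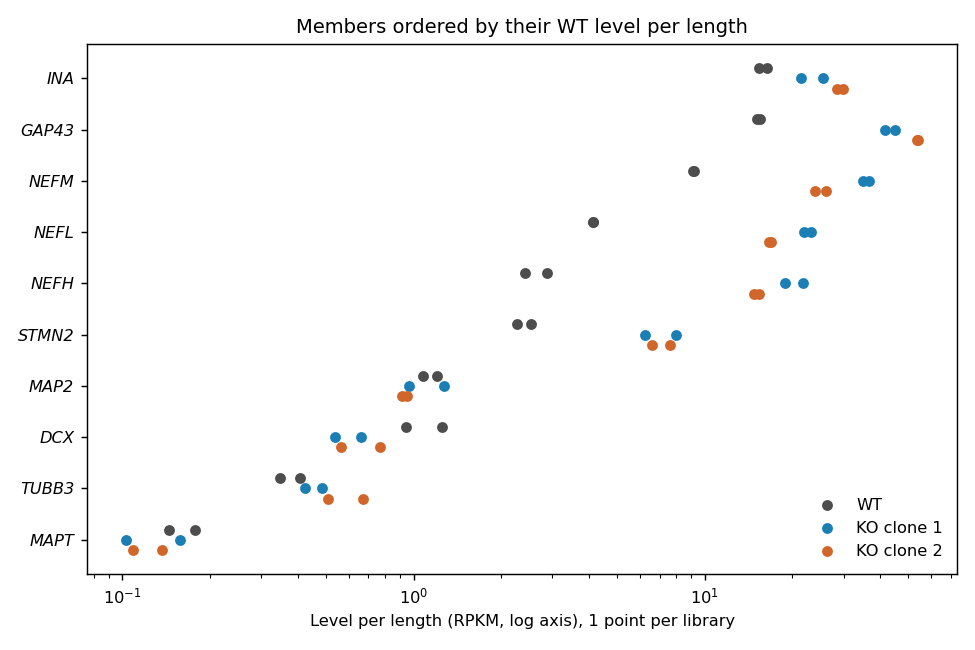
Level per length of the 10 genes in RPKM on a log axis, with a point for each library, ordered from top to bottom by the WT mean. INA and GAP43 lay near 15 RPKM in WT and MAPT lay lowest at 0.161 RPKM, and the points of the clones stood to the right of WT for the 6 genes that rose and to the left for DCX.

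Each clone was also compared with WT alone, in a fit with 3 groups. Against WT, KO1 had 5 of the 10 genes called higher (16.0% of all genes were) and 1 lower (8.80%), and KO2 had 6 higher (16.9%) and 1 lower (12.5%). These 2 comparisons share the WT libraries. NEFH rose by 2.94 ± 0.10 (SE) in KO1 and by 2.51 ± 0.11 in KO2, NEFL by 2.45 ± 0.08 and 2.02 ± 0.08, and NEFM by 1.97 ± 0.07 and 1.45 ± 0.07 on the log2 scale. GAP43 rose by 1.50 ± 0.08 in KO1 and by 1.81 ± 0.08 in KO2, and STMN2 by 1.56 ± 0.15 in each. INA was called in KO2, at 0.88 ± 0.08 on the log2 scale, while in KO1 its difference of 0.57 ± 0.08 passed the test (adjusted p = 2.40e-06 by edgeR) but was just under the fold threshold. Without WT replicate 1 or KO1 replicate 1 it was 0.61 or 0.70 in KO1 and was called. DCX fell by 0.88 ± 0.17 in KO1 and by 0.73 ± 0.17 in KO2, and the latter was no longer past the fold threshold without WT replicate 1 (-0.52) or KO2 replicate 1 (-0.50). TUBB3 was not called in KO2 at 0.65 ± 0.29 on the log2 scale (adjusted p = 0.0621 by edgeR), and was called there without KO2 replicate 2, at 0.84 (adjusted p = 0.0438 by edgeR), or when the filter asked for 10 counts or more in all libraries, at 0.67 (adjusted p = 0.0415 by edgeR).

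**Figure D4:**
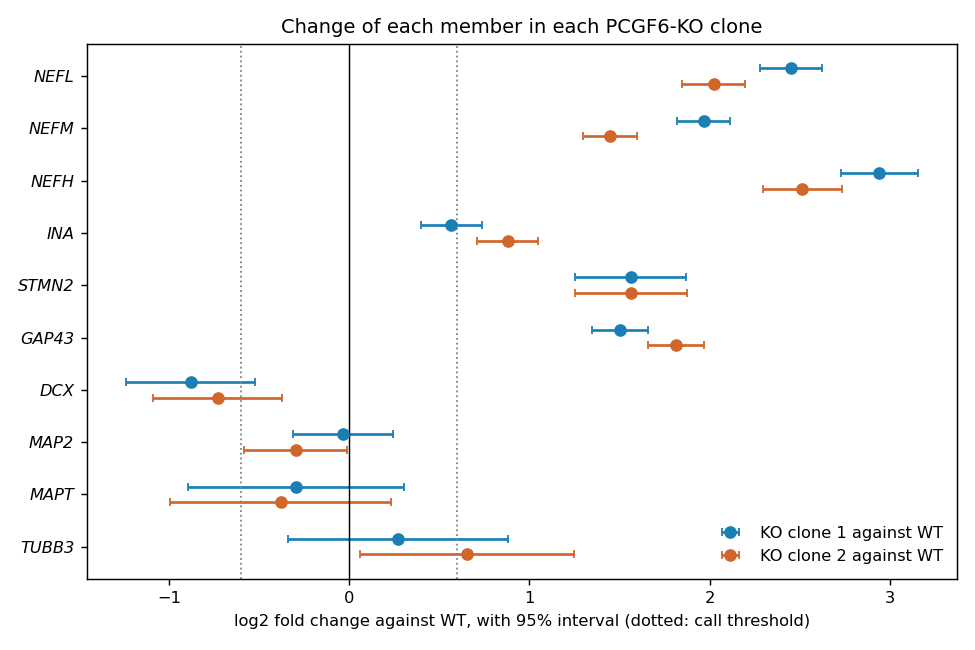
The log2 fold change of each of the 10 genes in KO1 and in KO2 against WT, with bars for the 95% interval and dotted lines at the call threshold of 0.6 in each direction. NEFL, NEFM and NEFH lay further to the right in KO1 than in KO2, INA and GAP43 further in KO2, and STMN2 at 1.56 in both.

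Set directly against each other, the clones differed in amount but not in which way the called genes moved. None of the 10 genes was called between KO2 and KO1 by edgeR or by DESeq2, where 3.73% of all genes were called higher in KO2 and 4.14% lower. Without the fold threshold 5 of 10 passed, the same number as at an unadjusted p under 0.05 and as by DESeq2 without that threshold. Of these, 2 were higher in KO2 (10.7% of all genes) and 3 lower (8.82%). The 3 lower ones were NEFL at -0.43 ± 0.07 (SE), NEFM at -0.52 ± 0.07 and NEFH at -0.43 ± 0.08 on the log2 scale (adjusted p = 7.40e-05, 1.86e-06 and 5.60e-04 by edgeR). The 2 higher ones were INA at 0.31 ± 0.08 and GAP43 at 0.31 ± 0.07 (adjusted p = 0.00523 and 0.00164 by edgeR). For STMN2 the difference between the clones was 0.00 with a 95% interval of -0.26 to 0.26. The PCGF6 transcript, deleted in part at both alleles in each clone, was 0.90 ± 0.15 higher in KO2 than in KO1 on the log2 scale (adjusted p = 5.44e-05 by edgeR). Whether this bears on the neurofilament genes was not tested.

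The families around these genes were described from lists of their other members. The counts of every list below stand beside the shares over all genes tested, of which 14.9% were called higher and 8.70% lower. Of 11 other tubulins, 10 were tested, 3 rose and 2 fell, with a median log2 fold change of 0.14. TUBB2A, a beta-tubulin abundant in brain, had 172 and 164 CPM in WT and 721 to 1035 CPM in the PCGF6-KO libraries, a rise of 2.37 ± 0.16 (SE) on the log2 scale. TUBB2B, its close relative needed in migrating neurons, rose by 1.84 ± 0.12 from 315 and 328 CPM in WT. As the 2 genes are near-identical in sequence, reads may be shared between them and the split is uncertain. TUBB4A, another neural beta-tubulin, fell by 2.06 ± 0.54 on the log2 scale, from 31.8 and 30.1 CPM in WT to 13.3 and 10.7 CPM in KO1 and 2.43 and 2.87 CPM in KO2. TUBB4A was called lower in each clone against WT, at -1.36 ± 0.12 in KO1 and -3.55 ± 0.15 in KO2. Over both clones it was not called by DESeq2 (adjusted p = 0.0528 by DESeq2). Nor was it called without either WT library, where the difference was -2.03 or -2.10. TUBA4A, an alpha-tubulin, fell by 0.71 ± 0.07. The third gene that rose, TUBB6, did so by 0.79 ± 0.22 and was called in KO2 but not in KO1, nor over both clones without either WT library. By length, TUBB supplied 63.0 and 63.3% of the beta-tubulin RPKM in WT and 30.5 to 39.0% in the clones, TUBB2A went from 8.19 and 7.71% to 22.3 to 29.7%, and TUBB2B from 11.8 and 12.1% to 24.5 to 29.8%.

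Among the 3 other stathmins, 2 were tested and 1 fell. STMN3, a neural stathmin, had 87.9 and 95.3 CPM in WT and 21.3 to 27.0 CPM in the PCGF6-KO libraries, and fell by 1.99 ± 0.10 (SE) on the log2 scale (adjusted p = 1.60e-06 by edgeR). By length STMN3 went from 25.7 and 27.4% of the stathmin RPKM in WT to 8.42 to 9.51% in the clones, and STMN2 from 2.0 and 2.2% to 7.05 to 10.7%. STMN1, the stathmin of dividing cells, made up the most in every library, at 70.4 to 83.4%.

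Of 13 other microtubule-associated proteins 12 were tested, 3 rose and 1 fell, with a median log2 fold change of 0.05. MAP1B, which stabilises microtubules in growing axons, rose by 1.43 ± 0.13 (SE) on the log2 scale, from 324 and 343 CPM in WT to 746 to 1042 CPM. MAP1A, its partner of mature neurons, rose by 1.00 ± 0.09, and MAP7, which binds microtubules in epithelial cells, fell by 1.29 ± 0.06. MAP7D2, a relative of MAP7, rose by 0.94 ± 0.24 and was called in KO1 but not in KO2, nor over both clones without either WT library. In the doublecortin family, where DCX itself fell, 2 of 4 other members rose and none was called lower over the 4 libraries. DCLK1, a doublecortin-like kinase, had 73.9 and 69.8 CPM in WT and 316 to 369 CPM in the PCGF6-KO libraries, a rise of 2.23 ± 0.08 on the log2 scale. DCDC2 rose by 3.64 ± 0.34, from 0.614 and 0.779 CPM in WT to 6.59 to 11.1 CPM. DCLK3, another doublecortin-like kinase, was at -0.77 ± 0.33 over the 4 libraries and was called lower in KO2 (-1.13 ± 0.31, adjusted p = 0.00335 by edgeR), with both clones weighted equally (-0.82) and without KO1 replicate 1 (-0.98).

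Of 6 other intermediate filament genes of types III and IV, 5 were called higher and none lower, with a median log2 fold change of 2.22. The sixth, GFAP, the filament of astrocytes, went the other way: it had 36 and 32 counts in WT, 18 and 33 in KO1 and 9 and 6 in KO2. It was not called over the 4 libraries, at -1.17 ± 0.51 (SE) on the log2 scale, and was called lower in KO2 (-2.22 ± 0.43, adjusted p = 1.08e-04 by edgeR), with both clones weighted equally (-1.40) and without KO1 replicate 2 (-1.73). VIM, the vimentin of mesenchymal cells and neural precursors, rose by 2.96 ± 0.23 (SE) on the log2 scale, from 46.1 and 52.7 CPM in WT to 304 to 306 CPM in KO1 and 440 to 487 CPM in KO2. NES, the nestin of neural and other precursors, rose by 1.11 ± 0.09, from 277 and 322 CPM in WT to 592 to 709 CPM. SYNM, a filament protein of muscle, rose by 2.68 ± 0.41 from 0.430 and 0.419 CPM in WT. DES, the desmin of muscle, had 2.40 and 1.98 CPM in WT and 3.68 to 11.0 CPM in the clones, a rise of 1.77 ± 0.48 on the log2 scale that was not called without either WT library. PRPH, the peripherin of peripheral neurons, had 0 and 2 counts in WT, 4 and 15 in KO1 and 17 and 12 in KO2, and was likewise not called without either WT library. Thus 3 of the 6 were called when either WT library was left out.

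With 14.9% of all genes tested called higher and 8.70% lower, lists as short as the next ones can lack a gene called higher. Of 9 growth cone proteins other than GAP43, none was called higher and 1 lower, with a median log2 fold change of -0.35. That gene was GPRIN1, a partner of G proteins in growth cones, which fell by 1.32 ± 0.20 (SE) on the log2 scale from 21.4 and 18.6 CPM in WT. Of 15 axonal spectrins, ankyrins and kinesins, none was called higher and 4 lower. KIF5A, the neuronal kinesin heavy chain, fell by 2.16 ± 0.18, from 57.8 and 58.7 CPM in WT to 9.71 to 16.4 CPM. KIF21B fell by 1.27 ± 0.09 and KIF21A by 0.78 ± 0.10, both kinesins of axons and dendrites. SPTBN4, the spectrin of the axon initial segment, fell by 1.39 ± 0.41 and was not called without either WT library. A list of 9 genes held kinases that act on tau and doublecortin, with CDK5R1 and CDK5R2, which are activator subunits of CDK5. Of these genes 8 were tested and 0 were called by edgeR or by DESeq2, while 4 had an unadjusted p under 0.05, 1 of them higher. Without WT replicate 2, 1 of them was called lower.

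Neuronal transcription factors were counted together with REST, the repressor that keeps neuronal genes silent outside neurons. Of 18 genes in that list 12 were tested, 4 rose and none was called lower over the 4 libraries, although each clone had 1 called lower. EBF2, a relative of EBF3, had 14.0 and 17.3 CPM in WT and went opposite ways, lower in KO1 (7.06 and 6.55 CPM, -1.20 ± 0.14 on the log2 scale) and higher in KO2 (25.1 and 22.7 CPM, 0.61 ± 0.12). MYT1, a zinc finger factor of developing neurons, was called lower in KO2 (-1.30 ± 0.33) and with both clones weighted equally (-0.95). EBF3, a factor of differentiating neurons, had 11 and 9 counts in WT and 130 to 286 in the clones, a rise of 4.29 ± 0.53 (SE) on the log2 scale. INSM1, a factor of neural and endocrine precursors, had 10 and 7 counts in WT and 112 to 186 in the clones, a rise of 4.03 ± 0.30. POU3F2 had 8 and 4 counts in WT and 12 to 37 in the clones, and was not called without either WT library. REST also rose, by 1.33 ± 0.08 on the log2 scale, from 97.7 and 91.9 CPM in WT to 225 to 252 CPM. With 10 counts required in every library, 1 gene of this list was called higher.

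The markers of cell types were read beside these values. Of 12 neuron markers 11 were tested, 1 rose (14.9% of all genes did) and 5 fell (8.70%). Their summed level was 627 to 646 CPM in WT, 467 to 480 CPM in KO1 and 492 to 535 CPM in KO2. That sum was mostly UCHL1, with 473 and 459 CPM in WT and 391 to 455 CPM in the clones. UCHL1 was not called (-0.17 on the log2 scale), so the sum says little about the other markers. The 1 that rose was PRPH, itself a filament gene and counted above among the intermediate filaments. Of the other 10 tested, 0 were called higher by edgeR or DESeq2 and 0 were higher at an unadjusted p under 0.05. SYP, the synaptic vesicle protein synaptophysin, fell by 4.51 ± 0.27 (SE) on the log2 scale, from 9.52 and 9.89 CPM in WT to 0.249 to 0.660 CPM. CHGA, the chromogranin A of secretory granules, fell by 3.30 ± 0.15 and RBFOX3, which encodes the neuronal nuclear antigen NeuN, by 2.11 ± 0.14. ELAVL2, another neuronal RNA-binding protein, fell by 1.91 ± 0.17 and CHGB, the chromogranin B of the same granules as CHGA, by 1.95 ± 0.28. ELAVL3 (8 to 27 counts in the PCGF6-KO libraries, 6 and 11 in WT), ELAVL4 (30 to 96, and 34 and 26) and SNAP25 (37 to 47, and 32 and 15), RNA-binding and vesicle proteins of neurons, were not called over the 4 libraries. ELAVL4 differed between the clones: it was called higher in KO1 (88 and 96 counts), at 1.44 ± 0.24 on the log2 scale, and stood at the WT level in KO2 (31 and 30 counts, -0.03 ± 0.29). SNAP25 was called in KO2 at 0.78 ± 0.32 (adjusted p = 0.0484 by edgeR) and not in KO1 at 0.65 ± 0.33. When both clones were weighted equally against WT, ELAVL4 (0.70) and SNAP25 (0.72) were called higher.

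Markers of precursors and of other lineages also moved with the genotype, and their part in the changes of the cytoskeleton genes was not tested. Of 9 neural progenitor markers 6 were tested, 2 rose and 2 fell. Their summed level was 698 to 746 CPM in WT, 892 to 966 CPM in KO1 and 837 to 913 CPM in KO2. The filament gene NES, counted above, supplied 277 and 322 CPM of it in WT and 592 to 709 CPM in the clones. The rise of the sum thus came from NES and says little about the other markers. LHX2, a forebrain factor, had 6 and 3 counts in WT and 19 to 34 in the clones and rose, as did NES. OTX2, a forebrain and pluripotency factor, fell by 1.26 ± 0.07 (SE) on the log2 scale. With 10 counts required in every library, 1 of the progenitor markers was called higher. SOX2, the factor shared by neural and pluripotent cells, had 327 CPM in both WT libraries, 246 and 245 CPM in KO1 and 153 and 166 CPM in KO2. It fell by 0.69 ± 0.19 over both clones, a call lost without either WT library or without KO2 replicate 1. Taken by clone, SOX2 was called lower in KO2 (-1.04 ± 0.06) but not in KO1, where -0.41 ± 0.06 was under the fold threshold. Of 9 neural crest markers 6 rose and 1 fell, and 3 were called higher with 10 counts required in every library. Their summed level was 249 to 251 CPM in WT, 250.0 to 251 CPM in KO1 and 255 to 271 CPM in KO2. PAX3 had 2 and 0 counts in WT and 204 to 298 in the clones, TFAP2A 6 and 5 against 237 to 294, SNAI2 13 and 11 against 286 to 465, and TFAP2B 0 in both WT libraries against 5 to 25. The TFAP2B call was lost without either WT library. FOXD3, which is also made in pluripotent cells, was the 1 that fell, from 192 and 179 counts in WT to 26 to 35 in the clones. Without WT replicate 2, 3 of the 9 were called higher.

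Of 10 mesendoderm markers, which mark precursors of mesoderm and endoderm, 9 were tested and all 9 rose. Their sum was 6.71 to 7.31 CPM in WT, 692 to 701 CPM in KO1 and 927 to 936 CPM in KO2. Genes at 0 or few counts in WT could pass the filter only if the clones were high, so 9 of 9 partly reflects the filter. With 10 counts required in every library, 2 were called higher. HAND1 and SOX17 had 0 counts in both WT libraries against 672 to 2012 and 33 to 47 in the clones. TBXT had 0 and 12 counts in WT and 3065 to 5515 in the clones, and EOMES 3 and 5 in WT and 1615 to 2630 in the clones. Of 8 pluripotent cell markers none was called higher and 2 fell over both clones. These were SOX2, called in KO2 but not in KO1, and USP44, a deubiquitinase gene high in pluripotent cells. USP44 fell by 2.04 ± 0.17 (SE) on the log2 scale. POU5F1 stood at 1492 and 1499 CPM in WT and 1416 to 1625 CPM in the clones, with a difference of 0.01 ± 0.07 that turned to -0.02 under upper-quartile normalization. NANOG had 119.2 and 143 CPM in WT and 154 to 189 CPM in the clones, a difference of 0.40 ± 0.10 that was under the fold threshold. No list had a gene with 0 counts in every library.

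**Figure D5:**
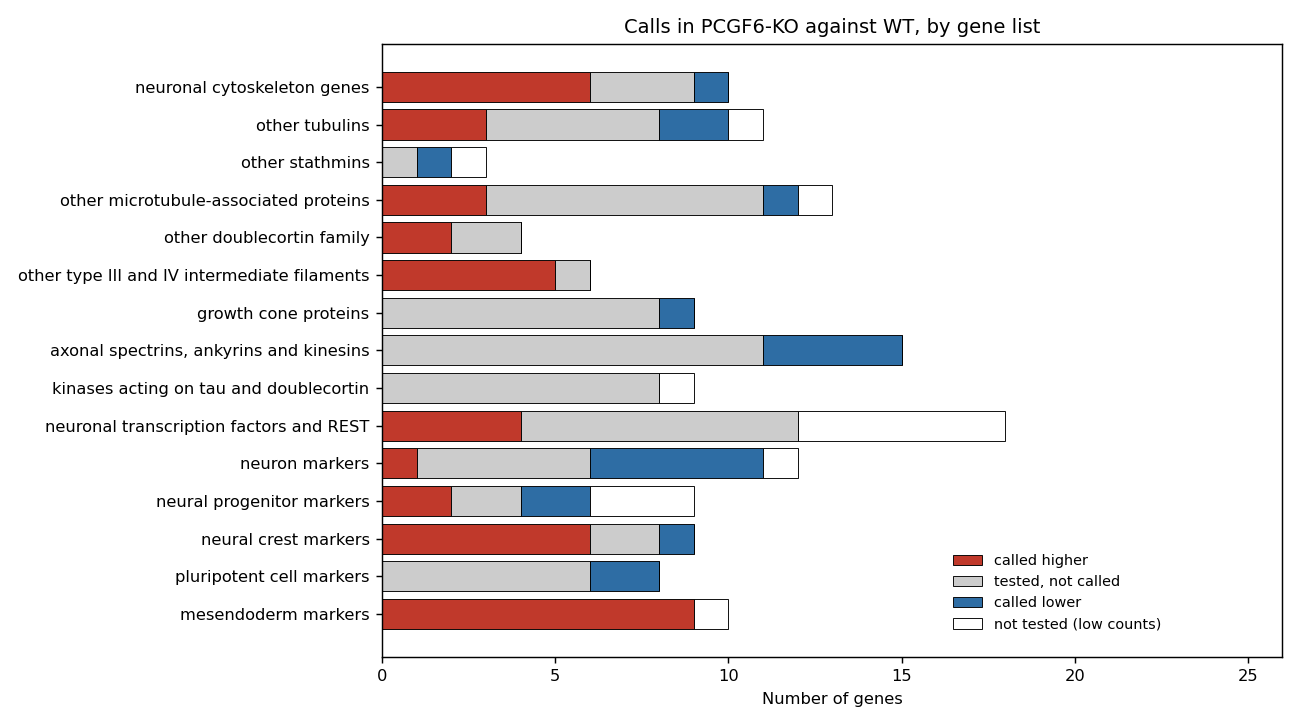
Number of genes of each list called higher, not called, called lower or not tested for low counts, in the 4 PCGF6-KO libraries against the 2 WT libraries, with a bar for each list. The neuronal cytoskeleton genes had 6 of 10 called higher, the other intermediate filaments 5 of 6 and the mesendoderm markers 9 of 10. With 10 counts required in every library, the other intermediate filaments had 3 called higher and the mesendoderm markers 2. Over all genes tested 14.9% were called higher and 8.70% lower. None of the growth cone proteins listed apart from GAP43, nor of the spectrins, ankyrins and kinesins, was called higher, and lists this short can lack such a gene at that share.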

How the data were processed

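RNA-seq counts of 2 WT, 2 KO1 and 2 KO2 libraries were used, and the ChIP-seq samples of the series were not analysed here. The authors trimmed reads with Trim Galore (0.6.2), aligned them to GRCh38 with HISAT2 (2.1.0) and deposited raw counts per gene from featureCounts, with the exon length of each gene beside the counts. The annotation release, strand setting and treatment of multi-mapped reads are not given in the sources used here.

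In edgeR (4.0.16, with limma 3.58.1 and R 4.3.3), filterByExpr on the genotypes kept 17672 genes and TMM factors scaled the libraries. The 4 PCGF6-KO libraries were compared with WT by glmQLFit and glmQLFTest. A second fit, with WT, KO1 and KO2 as separate groups, compared each clone with WT and KO2 with KO1. The p-values were adjusted over all genes tested (Benjamini-Hochberg). Calls needed an adjusted p below 0.05 together with a log2 fold change beyond 0.6 in either direction. CPM and RPKM were computed from the deposited counts and lengths. The scripts were tested on simulated counts. Replicates were not identical: a chi-square per degree of freedom of 2.40 (WT), 4.50 (KO1) and 3.20 (KO2) was found between them.

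All 10 members are named. From each other list, up to 4 genes called in the same direction over all libraries and in both clones are named by size of change, as are a few markers whatever their values. TUBB6, MAP7D2, ELAVL2, CHGB, FOXD3, GFAP, DCLK3, EBF2 and MYT1 were named to complete a short count, and NT5C2 and the pseudogenes because they can share reads with members, all after their values were seen. The members, lists and rules were chosen with earlier results of these data known. The alternatives tried were leaving out each library, a replicate block, DESeq2 (1.42.0), normalization by RLE or by the upper quartile, a filter of 10 counts in every library or none, no fold threshold, and equal weight for the clones. Positions are from the GENCODE annotation of GRCh38, and promoters from RefSeq.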

Additional observations from a re-analysis of the deposited data

Results flagged for a closer look

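Among the 4 PCGF6-KO libraries, MAP2 had 1 value set apart from the others, with a gap to its nearest neighbour of 0.831 of the range on the log2 scale, just above Dixon's critical value for 4 samples. It was KO1 replicate 2 at 14.7 CPM, against 10.5 to 11.1 CPM in the other 3. The 10 genes were checked in this way, and chance alone sets apart about 1 in 20 groups.

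In 5 of the 10 genes the clones differed from each other in a test of the difference itself, at an adjusted p under 0.05 by edgeR. KO2 minus KO1 was -0.43 for NEFL, -0.52 for NEFM and -0.43 for NEFH on the log2 scale, with every KO1 library above both KO2 libraries. The difference was 0.31 for INA and 0.31 for GAP43, with every KO2 library above both KO1 libraries.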

How the results depend on the processing

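The 10 genes were followed over 490 values, each the log2 fold change of a gene in a comparison under an alternative: 473 kept their direction and side of the threshold, 4 passed it newly, 3 no longer passed it and 10 changed sign, none of these in a gene called in that comparison. NEFL, NEFM, NEFH, GAP43 and STMN2 were called higher in both clones under every alternative run. Without the fold threshold 6556 genes were called in PCGF6-KO against WT (4167 with it), 8002 in KO1, 8904 in KO2 and 3442 between the clones, with 5 of the 10 genes among the last. DESeq2 called 810 genes between the clones, against 1390 by edgeR. Upper-quartile normalization moved the median of all genes to -0.03 and turned POU5F1 in PCGF6-KO against WT (-0.020) and STMN2 between the clones (-0.023), and the filter of 10 counts turned STMN2 there too (-0.0037). With 1 library left out, POU5F1 ran from -0.019 to 0.043, EBF2 from -0.37 to 0.23, MAP2 in KO1 against WT from -0.23 to 0.16, and, between the clones, STMN2 from -0.17 to 0.19, MAPT from -0.36 to 0.26 and DCX from -0.087 to 0.37. The cause of these turns was not tested.

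Fits with a replicate block called 3876 genes in PCGF6-KO against WT, 4420 in KO1, 5233 in KO2 and 1484 between the clones, and changed no call among the 10 genes, while SPTBN4 was not called (adjusted p = 0.0564 by edgeR). Same-numbered libraries deviated together only weakly, with r across 15413 genes of 0.057 for WT and KO1, 0.066 for WT and KO2 and 0.183 for KO1 and KO2, so the numbers were taken as names and not as pairs.

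With 2 WT libraries, many calls rest on each of them. TUBB3 and MAPT rest on 25 to 54 counts in a library, and their intervals are the widest of the 10 genes.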
